A study of Homo sapiens with 20 samples.

Results

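The comparison described here set 3 SLAM-seq libraries of MM1.S cultures given dCBP-30 for 2 h against 3 that were given DMSO for 2 h, chosen by their titles from the 20 libraries of the series. MM1.S is an established human multiple myeloma cell line that carries a MAF translocation, and its genotype was labelled WT in both groups. dCBP-30, given at 10 nM, is a degrader that brings the acetyltransferases CBP and p300 to cereblon, a ubiquitin ligase receptor, and DMSO is the vehicle. Cells of both groups were labelled with 4-thiouridine (4sU) for the last hour before harvest, so the first hour of treatment preceded the label. The groups were labelled as triplicates of a single cell line. Nothing in the labels says whether the replicates were separate cultures, and the p-values therefore measure the spread between libraries. For most tests this spread was estimated over all 18 labelled libraries of the series, those at 6 h and 24 h included. Libraries at 6 h, with their own DMSO group, served to show which changes were already present at 2 h, and the DMSO libraries at 6 h gave the turnover of each RNA.

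CBP and p300 acetylate histones at enhancers and promoters and bind many transcription factors, and the RNAs made from genes with large enhancers are known to be among the first to fall when they are inhibited. In myeloma these genes include the transcription factors of the plasma cell and the MYC and MAF genes. In SLAM-seq, 4sU taken up into RNA is alkylated and then sequenced as C, so a read with such a conversion (a T>C read) comes from RNA made during labelling. Reads without a conversion come from older RNA, which includes RNA made early in the treatment, and from new RNA that shows no conversion within the read. When synthesis stops, the new RNA of every affected gene falls at once, while the older RNA falls only as fast as it decays.

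The 6 libraries held between 12439672 and 16869423 reads counted on the 3′ ends of 19593 genes, and between 674886 and 974122 of these were T>C reads. T>C reads made up 5.54% ± 0.138 of the reads under dCBP-30 and 6.08% ± 0.0776 under DMSO (SD, n = 3 each), a ratio of 0.910, and the groups did not overlap (p = 0.1 in an exact permutation test, two-sided, which cannot go lower with 3 libraries against 3). Taken gene by gene, the median T>C share was 7.92% and 7.89%, a ratio of 1.003 (p = 0.8 in the same exact test). Levels are given in RPM, read counts set relative to the size of the whole library after TMM scaling, and SE is the standard error of a log2 fold change. Of 9 plasma cell and myeloma markers, 8 had a mean above 1 RPM in all reads, and their summed level was between 5503 and 5846 RPM under DMSO and between 3824 and 4131 RPM under dCBP-30. The markers of T and NK cells summed to at most 6.21 RPM and those of myeloid cells to at most 0.924 RPM, with CD3D, CD3G, NKG7 and LYZ at 0. In such bulk libraries, fewer cells of a type and less RNA per cell cannot be told apart.

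New RNA fell in far more genes than it rose. A gene was called when its adjusted p in edgeR's quasi-likelihood test was under 0.05 and its change was over 2-fold. Of 10083 genes tested for T>C reads, 720 were lower under dCBP-30 (7.14% of those tested) and 167 higher (1.66%). Of the 720, 347 fell by more than 2 on the log2 scale, and 19 had 0 T>C reads in all dCBP-30 libraries. The median log2 fold change over all genes tested was 0.05. It was 0.15 with library totals alone and 0.29 with each library scaled by its own total of T>C reads, under which 555 genes were lower and 431 higher.

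The sum of all reads of a gene, old and new, moved in far fewer genes. Of 12267 genes tested for total reads, 153 were lower (1.25%) and 56 higher (0.457%), and 140 of the 720 genes low in T>C reads were among the 153. The count of 56 was 88 without DMSO replicate 3. Of 12108 genes tested for reads without a conversion, 75 were more than 2-fold lower (0.619%) and 30 more than 2-fold higher (0.248%). With no limit on the fold, 140 were lower (1.16%) and 82 higher (0.677%). Without dCBP-30 replicate 1 and without DMSO replicate 1, the 140 became 83 and 91, and the 82 became 37 and 29. The 82 became 45 and 46 without dCBP-30 replicate 2 and DMSO replicate 2, and the 30 became 18, 18 and 15 without dCBP-30 replicate 1, dCBP-30 replicate 2 and DMSO replicate 1.

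**Figure D1:**
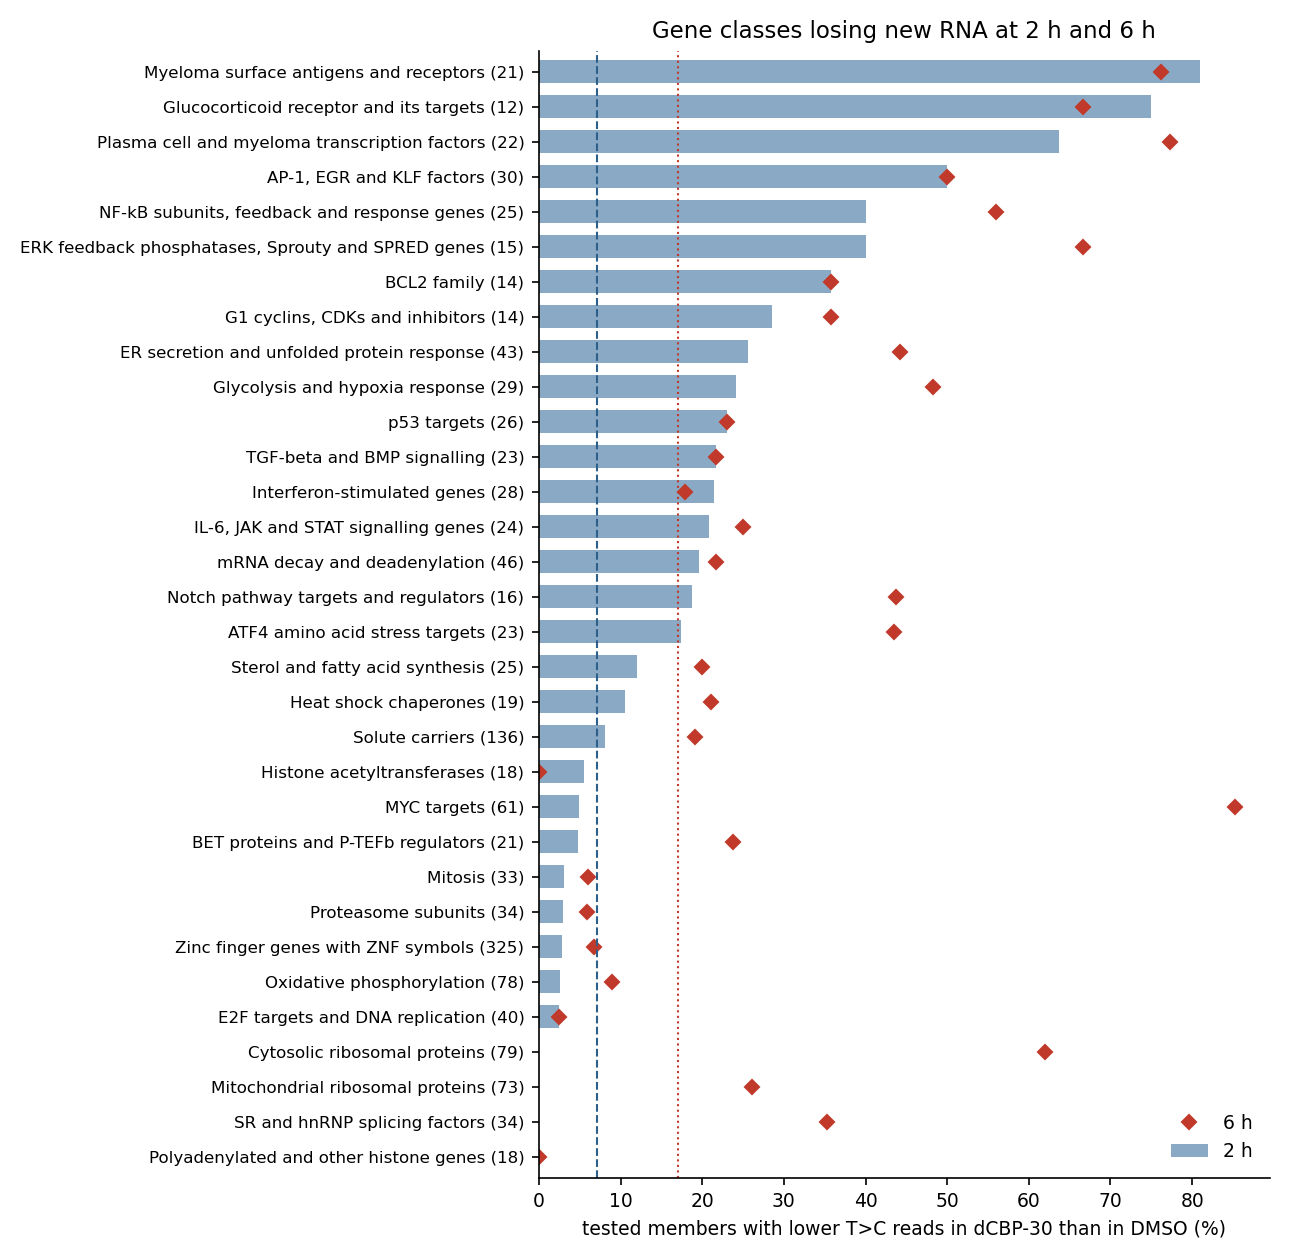
For the gene lists described here with at least 10 tested members, the share of these called lower in T>C reads under dCBP-30, in percent, at 2 h (bars) and at 6 h (diamonds), with the number tested beside each name and the share of all genes tested as a dashed line for 2 h (7.14%) and a dotted line for 6 h (17.1%). Surface antigens, glucocorticoid receptor targets and plasma cell transcription factors lay far above the dashed line at 2 h, while MYC targets and ribosomal proteins lay below it at 2 h and far above the dotted line at 6 h.

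Among the lists described here with at least 10 tested members, the largest shares of lower genes were in lists of plasma cell identity and of signal responses. Not all signal lists stood high, with 5 of 24 IL-6, JAK and STAT genes and 3 of 16 Notch genes lower. Of 21 tested surface antigens and receptors of myeloma, 17 were lower, followed by 9 of 12 genes of the glucocorticoid receptor list, 14 of 22 plasma cell and myeloma transcription factors, 15 of 30 AP-1, EGR and KLF factors, 10 of 25 NF-kB genes and 6 of 15 ERK feedback genes. The median log2 fold changes of these lists ran from -3.04 for the surface antigens (-2.56 with its member at 0 T>C reads set at its bound) to -0.94 for the AP-1, EGR and KLF factors. Over 16 alternative settings the number of lower members stayed between 14 and 18 for surface antigens, 8 and 9 for the glucocorticoid list and 12 and 15 for the transcription factors. The lists were chosen with earlier results of these data known, so their counts are read only beside the 7.14% of all genes.

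Of the transcription factors that hold the plasma cell state, 14 of 22 lost new RNA. MYC, a driver of growth, had 1.47, 2.97 and 0.25 RPM in T>C reads in the dCBP-30 libraries and 123, 127 and 117 RPM in the DMSO libraries. Its log2 fold change was -6.29 (SE 0.50, adjusted p = 4.7e-07), between -7.27 and -5.74 over the alternatives. MAF, the factor activated by the translocation in this line (chr16:79594331-79598780, 3′ UTR, minus strand of hg38), had 4.14, 8.05 and 5.38 RPM in T>C reads against 129.8, 137 and 142 RPM. Its change was -4.52 (SE 0.20, adjusted p = 4.1e-27). In both genes the groups were separated by a gap many times their own spread.

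PRDM1, which represses the B cell program (chr6:106107487-106109939, 3′ UTR), had T>C levels of 19, 29.7 and 24.5 RPM under dCBP-30 and 306, 338 and 326 RPM under DMSO, a log2 fold change of -3.72 (SE 0.23, adjusted p = 1.9e-12). IRF4, on which myeloma cells depend (chr6:407599-411443, 3′ UTR), read 10.4, 9.84 and 10.6 against 113, 112 and 126 RPM in T>C reads, a change of -3.50 (SE 0.18, adjusted p = 8.5e-24). The libraries of a group lay close together in both genes. XBP1, the factor of the secretory program, had 35, 27.1 and 29.5 against 205, 217 and 196 RPM and a change of -2.76 (SE 0.16, adjusted p = 1.3e-21). The coactivator POU2AF1 changed by -3.01 (adjusted p = 0.0025) and the Ikaros factors IKZF1 and IKZF3 by -2.49 (adjusted p = 5.7e-13) and -2.59 (adjusted p = 9.5e-18). MEF2C changed by -1.92 (adjusted p = 6.6e-12) and TCF4, an E protein, by -2.11 (adjusted p = 1.6e-14). TCF3, another E protein, changed by less than 2-fold, with a log2 fold change of -0.93 (SE 0.20, adjusted p = 4.6e-04).

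Some of these genes hold TATAAA, the letters of the TATA box, shortly before the start of transcription, and the stretches before the start of MAF, IRF4 and CXCR4 are shown with that of HEXIM1, whose new RNA rose, because the same letters stood before genes that moved either way. The capitals mark TATAAA. The sequences are the 100 bases before the RefSeq start of each gene on GRCh38.p14, read 5′ to 3′ on the strand of the gene, for MAF at chr16:79600738-79600837, minus strand, IRF4 at chr6:391652-391751, plus strand, CXCR4 at chr2:136118150-136118249, minus strand and HEXIM1 at chr17:45148375-45148474, plus strand.
MAF: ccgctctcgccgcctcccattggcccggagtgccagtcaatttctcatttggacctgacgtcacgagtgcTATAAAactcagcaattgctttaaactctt
IRF4: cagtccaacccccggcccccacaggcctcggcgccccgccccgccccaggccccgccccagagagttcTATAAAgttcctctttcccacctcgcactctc
CXCR4: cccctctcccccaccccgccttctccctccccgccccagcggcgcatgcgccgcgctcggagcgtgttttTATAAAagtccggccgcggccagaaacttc
HEXIM1: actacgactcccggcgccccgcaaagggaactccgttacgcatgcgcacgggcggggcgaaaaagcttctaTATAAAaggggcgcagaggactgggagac
Promoters of 300 bases, 250 before the start and 50 after it, were found for 8211 of the 10083 genes tested. TATAAA, searched on both strands, was in 6.92% of the 564 promoters of genes that lost T>C reads. It was in 8.76% of the 137 promoters of genes with higher T>C reads, so it did not mark the genes that fell. It was in 4.67% of the 7510 promoters of genes that were not called and in 12% of all 27195 promoters. Among the 117 promoters of genes whose reads without a conversion fell, the share was 12.8%. The E-box CACGTG, bound by MYC, was in 11.2% of the promoters of genes that lost T>C reads and 10.7% of those not called, and GGGCGG in 68.8% and 72.1%. The MEF2 core CTATTTATA was in 0.177% and 0.200%. A match of letters is not a binding site, and these windows hold no distal enhancer.

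The surface antigens of myeloma, which include the targets of current antibodies and CAR T cells, had the largest share of lower genes among the lists (17 of 21 tested). CCR1, a chemokine receptor, had 3.36, 0.924 and 3.07 RPM of T>C reads with dCBP-30 and 106, 124 and 95.5 RPM under DMSO, a log2 fold change of -5.48 (SE 0.24, adjusted p = 3.2e-25). CXCR4, the receptor that holds plasma cells in the marrow, had 0.69, 0.726 and 0.689 against 22.6, 28.6 and 17.2 RPM and a change of -5.01 (SE 0.36, adjusted p = 6.3e-18). SDC1 (CD138), the defining surface marker of the plasma cell (chr2:20200797-20202765, 3′ UTR), had 7.25, 8.98 and 7.82 against 72, 63.5 and 63.4 RPM in T>C reads. The dCBP-30 libraries of SDC1 lay close together and far below the DMSO libraries, at 12.1% of their level, a log2 fold change of -3.04 (SE 0.19, adjusted p = 4.3e-20).

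TNFRSF17, which encodes BCMA, had 1.12, 0.396 and 1.44 RPM in T>C reads against 15.2, 9.94 and 10.6 RPM under DMSO, a change of -3.59 (adjusted p = 5.3e-11). TNFRSF13B (TACI) changed by -3.75 (adjusted p = 3.0e-10), the costimulatory receptor CD28 by -4.33 (adjusted p = 3.0e-12), SLAMF7 by -3.29 (adjusted p = 7.0e-17), CD38 by -2.56 (adjusted p = 6.4e-07) and GPRC5D by -1.73 (adjusted p = 0.0091). ITGB7, an integrin gene with a high level of new RNA, had 172, 157 and 163 against 429, 467 and 468 RPM and a change of -1.47 (SE 0.15, adjusted p = 5.8e-11). The median share of T>C reads of the list under DMSO at 6 h was 5.88%, against 9.32% over all genes, and of the 27 members tested for reads without a conversion, CCR1, CXCR4 and LAX1 were lower at any fold. The promoters of the surface antigens were also poor in CpG, with a median of 5 CG dinucleotides in 300 bases over 17 promoters, against 27 in the promoters of genes that were not called and 26 in those of all genes with lower T>C reads.

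Reads with a T>C mismatch also occur without 4sU, and this background sets a floor for the level of T>C reads. Of the SDC1 reads, 4.71% were T>C reads under DMSO and 0.656% under dCBP-30, against 0.444% in the libraries without 4sU. For POU2AF1 the shares were 3.46%, 0.439% and 0.438%, and for LAMP5, a lysosomal membrane protein gene, 4.17%, 0.369% and 0.497%. With the expected background subtracted, the log2 fold changes of SDC1, POU2AF1 and CCND2 were -4.53, -5.03 and -4.42, in place of -3.04, -3.01 and -3.12. For MAF, whose RNA turns over faster, the subtraction gave -5.20 in place of -4.52.

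**Figure D2:**
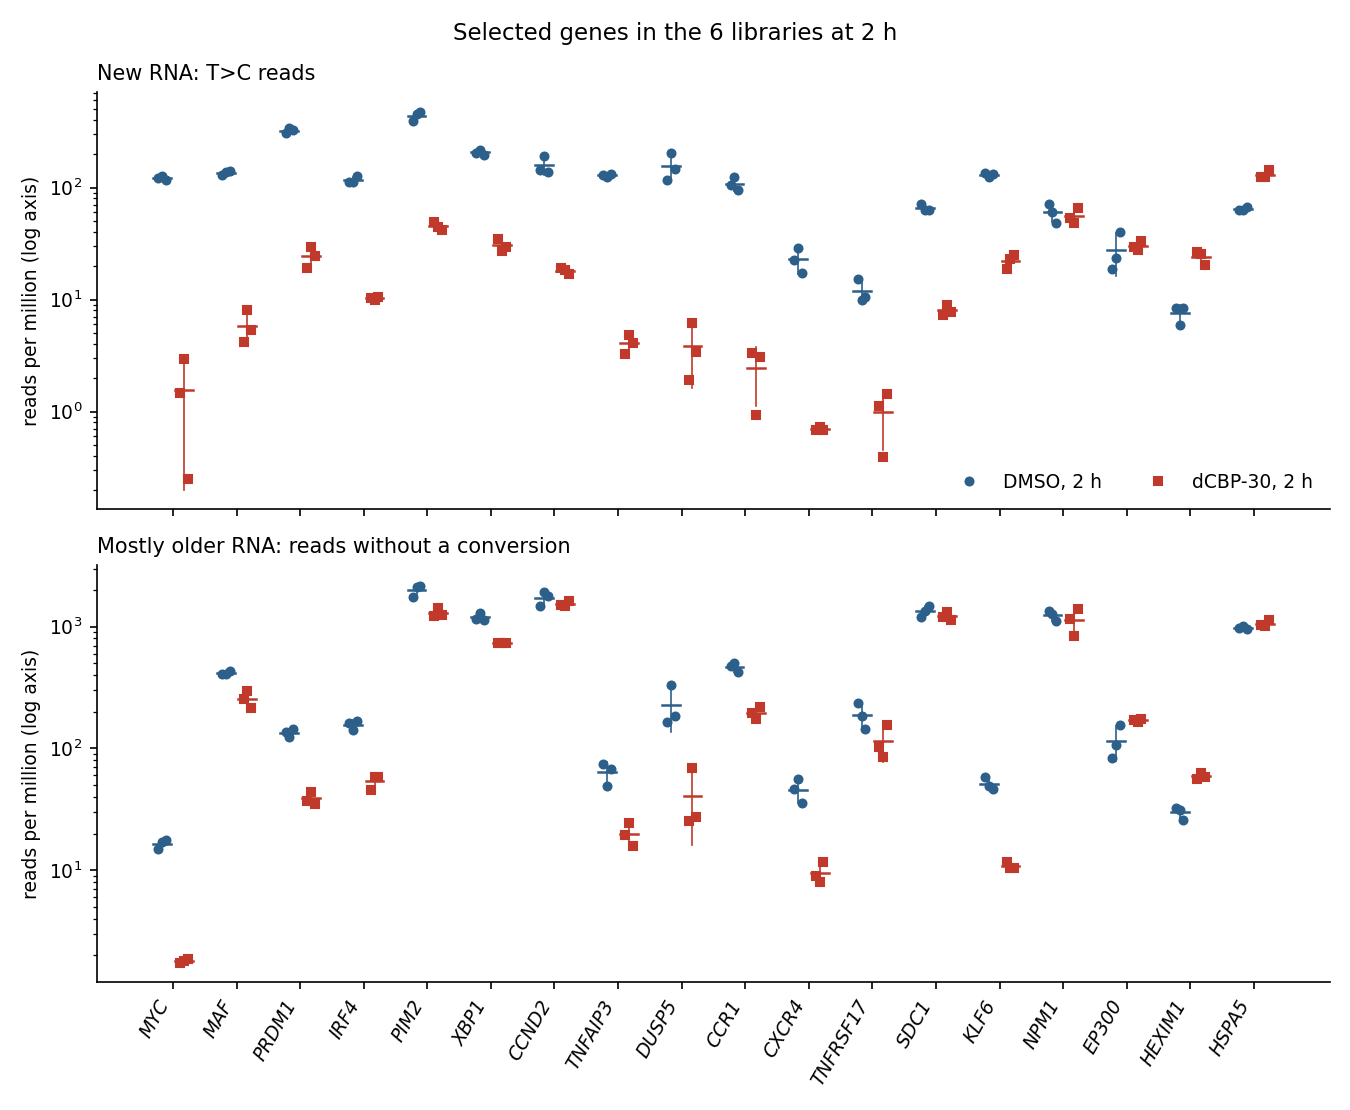
Levels in RPM (log axis) of T>C reads (upper panel) and of reads without a conversion (lower panel) of selected genes in the 3 dCBP-30 libraries (squares) and the 3 DMSO libraries (circles) at 2 h, with a horizontal line for the mean and a vertical line for its SD. In the T>C reads of MYC the dCBP-30 libraries lay between 0.25 and 2.97 RPM and the DMSO libraries between 117 and 127 RPM, and in HEXIM1 the order was turned, with 20.5 to 26.7 RPM under dCBP-30 against 5.92 to 8.47 RPM under DMSO.

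Genes that are switched on by signals and restrain them were among the lower genes. Of the ERK feedback genes, DUSP5, a nuclear phosphatase of ERK, had 1.9, 6.2 and 3.38 RPM in T>C reads against 117, 203 and 148 RPM, a log2 fold change of -5.32 (SE 0.43, adjusted p = 6.1e-07). DUSP4 and DUSP6, of the same family, changed by -5.21 (adjusted p = 1.2e-18) and -2.25 (adjusted p = 2.3e-07), and SPRED1 and SPRED2, inhibitors of the pathway at the level of RAS, by -3.87 (adjusted p = 4.8e-10) and -4.60 (adjusted p = 8.4e-09). Of the IL-6 and JAK genes, 5 of 24 were lower. PIM2, a survival kinase, had 48.8, 44.8 and 41.8 against 391, 453 and 475 RPM, a change of -3.28 (SE 0.22, adjusted p = 2.1e-11). PIM1 changed by -2.95 (adjusted p = 5.5e-19), and IL6ST, the shared signalling chain of the IL-6 receptor, by -3.07 (adjusted p = 4.2e-18).

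Of the NF-kB list, the genes that fell most were inhibitors of the pathway and of cell death. TNFAIP3, which encodes the ubiquitin editing enzyme A20, had 3.28, 4.82 and 4.13 RPM of T>C reads with dCBP-30 and 131, 125 and 132 RPM under DMSO, a change of -4.97 (SE 0.19, adjusted p = 7.4e-30). BIRC3, an inhibitor of apoptosis, changed by -4.97 (adjusted p = 1.6e-08). NFKBIA, the inhibitor that holds NF-kB in the cytoplasm, had 32, 38.1 and 35.6 against 101, 99.7 and 99 RPM and a change of -1.50 (SE 0.15, adjusted p = 3.0e-12). RELB was the 1 subunit gene among the 10 lower members, with -1.03 (adjusted p = 0.0463).

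The core GGACTTTCC of an NF-kB element, searched on both strands, was in the promoters of 8 of the 564 genes that lost T>C reads (1.42%), of 22 of the 7510 genes not called (0.293%) and in 0.375% of all promoters. The 8 were BTG2, CYP26A1, EIF2AK3, MGAT1, NFKBIA, RICTOR, TNFAIP3 and TRAF5. The stretches of 100 bases of 3 of them, on GRCh38.p14 and the strand of the gene, are shown to place the match beside genes whose new RNA fell, for TNFAIP3 at chr6:137867147-137867246, plus strand, NFKBIA at chr14:35404900-35404999, minus strand and BTG2 at chr1:203305419-203305518, plus strand. The capitals mark the core on either strand.
TNFAIP3: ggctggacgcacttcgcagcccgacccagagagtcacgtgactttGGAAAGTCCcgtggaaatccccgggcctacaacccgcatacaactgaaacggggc
NFKBIA: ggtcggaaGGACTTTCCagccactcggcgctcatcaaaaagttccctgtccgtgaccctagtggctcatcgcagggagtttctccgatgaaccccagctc
BTG2: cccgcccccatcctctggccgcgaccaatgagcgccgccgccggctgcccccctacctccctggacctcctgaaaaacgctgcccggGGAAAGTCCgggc
The counts are small and describe these letters in these windows.

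The AP-1, EGR and KLF list divided. BTG2, an antiproliferative gene, had 8.02, 7.85 and 7.82 RPM in T>C reads against 90.4, 109.9 and 107 RPM, a log2 fold change of -3.70 (SE 0.18, adjusted p = 6.0e-25), and KLF6 had 18.8, 22.8 and 25.2 against 136, 125 and 131 RPM, a change of -2.55 (SE 0.16, adjusted p = 5.1e-20). KLF10, KLF9, KLF3 and KLF2 were also called lower, with changes from -3.48 to -1.91. ZFP36 and ZFP36L1, whose proteins bind AU-rich elements and speed the decay of mRNA, changed by -2.37 (adjusted p = 3.0e-14) and -2.84 (adjusted p = 6.9e-18), and ID2, an inhibitor of E proteins, by -2.54 (adjusted p = 9.9e-14). JUN changed by -1.07 (adjusted p = 1.4e-06). Its relative JUNB had 31.3, 41.8 and 24.1 against 27.2, 27.1 and 27.6 RPM, with 0.25 (adjusted p = 0.486) on the log2 scale, and the groups overlapped. EGR1 was near 0 in every library.

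In the glucocorticoid receptor list, NR3C1, the receptor itself, had 3.36, 5.61 and 7.76 RPM of T>C reads with dCBP-30 and 31.6, 35 and 32.5 RPM under DMSO, a change of -2.55 (SE 0.24, adjusted p = 1.9e-13). SGK1, a kinase and classic target of the receptor (chr6:134169250-134170267, 3′ UTR), had 0.949, 0.396 and 0 against 14.5, 15.7 and 10.9 RPM and a change of -5.03 (SE 0.48, adjusted p = 4.9e-13), which was between -6.09 and -4.39 over the alternatives, on 11, 6 and 0 reads in the dCBP-30 libraries. Of the remaining lower members, TSC22D3 (GILZ) changed by -1.69 (adjusted p = 4.6e-07) and TXNIP by -1.14 (adjusted p = 1.9e-04). TXNIP lost its call under 3 of the 16 alternatives. CXCR4, BIRC3 and NFKBIA stand in this list as well as in those above, so the lists do not count separate genes.

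The Notch target HES1 had 0 T>C reads in all dCBP-30 libraries against 133, 135 and 194 reads under DMSO, which is at least 162-fold lower, taking 3 counts over the group as the floor. SELPLG, the ligand by which blood cells roll on selectins, had 4.05, 6.27 and 6.7 against 48.7, 48.3 and 51.7 RPM in T>C reads and a log2 fold change of -3.11 (SE 0.28, adjusted p = 2.1e-10). Both genes were named by a rule that takes only genes whose groups do not overlap, so the separation of their libraries is no further result.

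The secretory program was lower in part of its genes. Of 43 tested genes of ER secretion and the unfolded protein response, 11 were lower and 1 was higher, with a median log2 fold change of -0.32. ERN1, the sensor IRE1 that activates XBP1, changed by -2.48 (adjusted p = 8.3e-16), and HERPUD1 and EDEM1, which act in the disposal of misfolded proteins, by -2.43 (adjusted p = 1.6e-19) and -2.50 (adjusted p = 1.3e-07). TXNDC5, a disulfide isomerase abundant in plasma cells, had 36.7, 38.8 and 45.4 RPM in T>C reads against 252, 233 and 275 RPM, a change of -2.65 (SE 0.16, adjusted p = 2.2e-20). A readthrough gene that joins BLOC1S5 to TXNDC5 lists the same reads. HSPA5 (BiP), the chief chaperone of the ER, went the other way, with 124, 125 and 143 against 62.6, 63.2 and 67 RPM and a change of 1.02 (SE 0.15, adjusted p = 1.1e-07), which was 0.95 without dCBP-30 replicate 3.

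The most abundant new RNA among the lower genes came from the lambda light chain locus. IGLL5 (chr22:22895424-22895825, 3′ UTR) had 221, 188 and 191 RPM of T>C reads with dCBP-30 against 568, 575 and 629 RPM under DMSO, a change of -1.56 (SE 0.13, adjusted p = 4.2e-15). IGLC1, which overlaps it and shares its reads, changed by -1.62 (adjusted p = 1.8e-15), and which of the genes made the reads is uncertain. T>C reads were 0.747% of the IGLL5 reads under DMSO, 0.288% under dCBP-30 and 0.199% without 4sU.

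Genes of survival, the cell cycle and metabolism were mixed. Of 14 tested BCL2 family genes, 5 were lower: BCL2L1, which encodes BCL-XL (-3.48, adjusted p = 1.3e-17), MCL1, on which plasma cells depend (-1.42, adjusted p = 1.3e-11), and the genes of the proapoptotic proteins BMF (-2.42, adjusted p = 9.1e-04), BAK1 (-1.38, adjusted p = 0.0066) and BBC3 (-1.20, adjusted p = 8.1e-05). BCL2L2 was higher, from 0.192 to 1.39 RPM in T>C reads. Of 14 tested G1 genes, 4 were lower and 1 was higher, with a median log2 fold change of 0.07. CCND2, the cyclin D of this translocation class, had 19.2, 18.3 and 17 against 145, 189.6 and 139 RPM and a change of -3.12 (SE 0.18, adjusted p = 4.0e-22). The CDK inhibitors CDKN1B (-1.69, adjusted p = 3.5e-13) and CDKN1A (-1.61, adjusted p = 5.6e-10) fell too, while CCND3, another cyclin D, was higher (1.12, adjusted p = 0.035).

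Of 29 glycolysis and hypoxia genes, 7 were lower, among them ANKRD37 (-5.44, adjusted p = 1.4e-10), ADM, the peptide adrenomedullin (-3.02, adjusted p = 4.7e-10), and PDK1 (-2.63, adjusted p = 1.7e-16). SLC2A1, a glucose transporter, was higher (1.15, adjusted p = 0.0027). Of 26 p53 targets, 6 were lower and 1 was higher, led by TP53INP1 (-4.28, adjusted p = 3.0e-16). Of 28 interferon-stimulated genes, 6 were lower, with IRF1, a factor of the interferon response, at 7.42, 7.46 and 8.95 against 61.6, 65.2 and 74.8 RPM and a change of -3.08 (SE 0.18, adjusted p = 3.9e-21).

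Lists of genes that every growing cell uses had few lower members at 2 h. edgeR's test called 0 of 79 cytosolic ribosomal protein genes, 0 of 73 mitochondrial ribosomal protein genes and 0 of 34 splicing factors lower, beside 7.14% of all genes. At an unadjusted p under 0.05 and any fold, 2, 5 and 8 were lower, beside 1323 of all 10083 genes. At that threshold the splicing factors stood above the share of all genes and both ribosomal lists below it. The adjusted test called 3 of 61 MYC targets (4.92%), 2 of 78 oxidative phosphorylation genes (2.56%) and 1 of 34 proteasome genes (2.94%) lower. It also called 1 of 40 E2F targets (2.5%) and 1 of 33 mitosis genes (3.03%). Counts this small do not set these lists apart from the 7.14% of all genes. The median log2 fold change was -0.06 for the ribosomal proteins and -0.04 for the MYC targets. Over the 16 alternatives, DESeq2 included, the cytosolic ribosomal proteins held 0 lower members, the mitochondrial ribosomal proteins and splicing factors 0 or 1, and the MYC targets 2 or 3. NPM1, a nucleolar protein and MYC target, had 53.8, 48.7 and 65.7 RPM in T>C reads against 71.7, 61.1 and 48.8 RPM, and the groups overlapped, with a change of -0.11 (SE 0.17, adjusted p = 0.787). The zinc finger genes, of short-lived RNA with a median T>C share of 23.5%, were lower in 9 and higher in 10 of 325.

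Some of these lists followed by 6 h. At 6 h, against their own DMSO libraries, 1720 of the 10083 genes were lower in T>C reads (17.1%) and 238 higher (2.36%), and the median log2 fold change was -0.27. Of the 720 genes lower at 2 h, 565 were lower at 6 h, and 1153 genes were lower at 6 h that had not been called at 2 h. Of the MYC targets 52 of 61 and of the cytosolic ribosomal proteins 49 of 79 were lower at 6 h. The surface antigens stood at 16, the transcription factors at 17 and the AP-1, EGR and KLF factors at 15 lower members, beside 17, 14 and 15 at 2 h. For NPM1 the change was -1.30 at 6 h, and the difference between the time points was -1.19 (adjusted p = 3.2e-04). The change of XBP1 deepened to -4.53, a difference of -1.77 (adjusted p = 1.7e-08), and that of CCND2 to -5.22, a difference of -2.10 (adjusted p = 3.9e-09). TNFAIP3, at -4.63, and CXCR4, at -4.75, showed differences from 2 h of 0.34 (adjusted p = 0.497) and 0.26 (adjusted p = 0.855), and the change of BTG2 was smaller than at 2 h, by 1.00 (adjusted p = 0.0023).

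Increases of new RNA were fewer. HEXIM1, which restrains the elongation factor P-TEFb, had 26.7, 25.5 and 20.5 RPM of T>C reads with dCBP-30 and 8.47, 5.92 and 8.36 RPM under DMSO, a change of 1.67 (SE 0.22, adjusted p = 2.0e-08). SESN2, a sensor of leucine and stress, had 34.4, 30.7 and 24.4 against 9.01, 9.73 and 11 RPM, a change of 1.59 (SE 0.21, adjusted p = 9.1e-09). FASN, the fatty acid synthase, had 36.4, 56.8 and 33.1 against 12.3, 10.7 and 14.9 RPM and a change of 1.74 (SE 0.22, adjusted p = 5.8e-09), and was lower at 6 h, with -1.11. The cochaperone BAG3 (1.55, adjusted p = 5.4e-04) and UHRF1, a reader of methylated DNA (1.02, adjusted p = 0.001), also rose. The largest increases by the naming rule were ZNF354A (3.18, adjusted p = 0.015), SEMA3G (3.11, adjusted p = 0.0051), EFNB2, an ephrin (2.90, adjusted p = 2.0e-04), MARCHF2 (2.86, adjusted p = 0.0065), ETHE1 (2.70, adjusted p = 0.007), LAMTOR2 (2.70, adjusted p = 0.013), ISL2 (2.69, adjusted p = 0.04) and CASP9 (2.62, adjusted p = 0.019), all at or under 0.696 RPM in T>C reads under DMSO. The histone gene H2BC21, with 2 T>C reads over the DMSO libraries and 92 over the dCBP-30 libraries, had a ratio of 43.7 with a 95% counting interval from 11.8 to 366, and the metallothionein gene MT1X, with 3 and 91, had a ratio of 28.8, from 9.55 to 142. These intervals cover counting error alone. Of the 167 genes, 33 were higher at 6 h as well and 2 were lower.

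The genes of the degrader's target proteins were not called. EP300 had 29.3, 27.5 and 33.6 RPM of T>C reads with dCBP-30 and 18.9, 23.5 and 40.4 RPM under DMSO, and CREBBP had 5.78, 6.2 and 7.51 against 2.92, 5.43 and 5.45 RPM. The log2 fold changes were 0.13 (SE 0.20, adjusted p = 0.797) for EP300, where the groups overlapped, and 0.50 (SE 0.31, adjusted p = 0.379) for CREBBP. RNA does not measure the loss of the proteins.

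**Figure D3:**
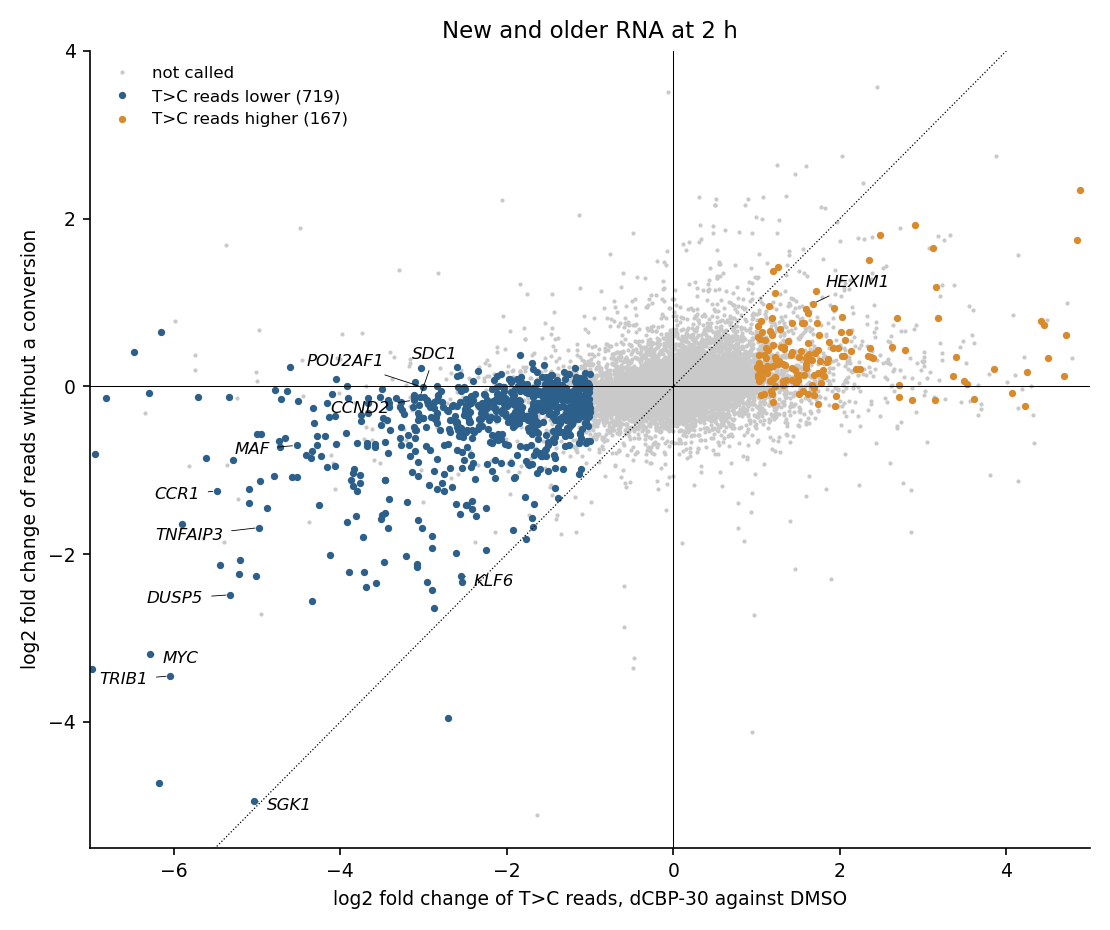
The log2 fold change of reads without a conversion (vertical axis) against that of T>C reads (horizontal axis) for 10069 genes at 2 h, of which 43 fall outside the axes. The colours mark genes with lower, higher or uncalled T>C reads, and the dotted line marks equal change. Genes with lower T>C reads spread from SDC1, at -3.04 and -0.13, to SGK1, at -5.03 and -4.95.

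The older RNA of the genes that lost new RNA followed at very different speeds. Of the 720 genes, 719 were tested for reads without a conversion, and 653 (90.8%) had a log2 fold change below 0, with a median of -0.31. Among 9183 genes not called in T>C reads, 49.0% were below 0, with a median of 0.01. At an adjusted p under 0.05 and any fold, 129 of the 719 were lower, beside 1.16% of all genes. Seen from the other side, 129 of the 140 genes with fewer reads without a conversion had lower T>C reads. The interaction of treatment and kind of read tested both in the same libraries. In it 449 of 8574 genes fell more in T>C reads than in the rest (5.24%) and 50 rose more (0.583%, or 28 genes without dCBP-30 replicate 1). Of the 720, 430 of 700 tested were among the 449. The 720 were chosen by the same T>C reads that this test uses, so that overlap is no separate result.

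**Figure D4:**
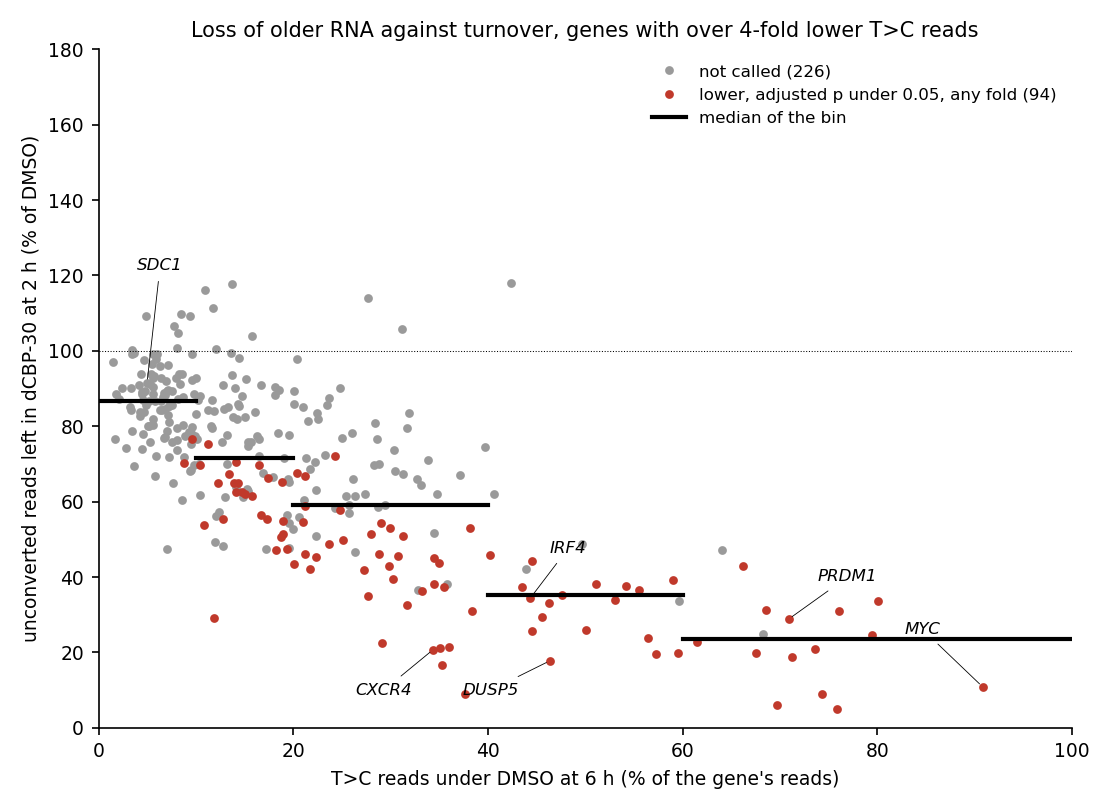
The reads without a conversion left under dCBP-30 at 2 h, in percent of DMSO, for the 320 genes whose T>C reads fell more than 4-fold, against their share of T>C reads in the DMSO libraries at 6 h, in percent, with genes called lower in reads without a conversion in red and black lines at the median of each bin. The median fell from 86.7% in the genes with a share under 10% to 23.7% in those with a share of 60% or more.

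How much older RNA was left went with the turnover of the RNA under DMSO. Turnover was read from the share of T>C reads over the DMSO libraries at 6 h, which do not enter the means of the 2 h contrast. Among 320 genes with a fall of T>C reads over 4-fold and enough older reads, the 106 with a T>C share under 10% kept a median of 86.7% of their reads without a conversion (quartiles 78.2% and 92.6%). The 89 genes with a share from 10% to 20% kept 71.6%, the 86 with 20% to 40% kept 59.1%, the 23 with 40% to 60% kept 35.1% and the 16 with more kept 23.7% (quartiles 16.9% and 31.0%). Called lower in these bins were 2, 24, 36, 18 and 14 genes. The median change of T>C reads in these bins was between -3.15 and -2.60 on the log2 scale. All these genes were chosen for a fall over 4-fold and no background was subtracted, so these medians do not show an equal loss. Across these genes, which share libraries and are not independent, the log2 fold change of the reads without a conversion had a Pearson correlation of -0.79 and a Spearman correlation of -0.71 with the share at 6 h, and of -0.77 and -0.69 with the share in the DMSO libraries at 24 h. New RNA without a conversion makes up more of these reads in a gene with a high T>C share, and its part in the fall was not tested.

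At the fast end stood growth and signal genes. MYC had 1.73, 1.78 and 1.88 RPM in reads without a conversion under dCBP-30 and 14.9, 16.9 and 17.7 RPM under DMSO, 10.9% of the DMSO level, with a log2 fold change of -3.19 (SE 0.32, adjusted p = 2.7e-07). SGK1 had 0.0863, 0.066 and 0.0626 against 2.08, 3.67 and 1.49 RPM, 2.97% of the level, on 1 read in each dCBP-30 library, with a change of -4.95 (SE 1.01, adjusted p = 0.0058). TRIB1, a pseudokinase that leads proteins to degradation, had 0.518, 0.66 and 1.0 against 4.77, 7.97 and 11.7 RPM, a change of -3.45 (SE 0.45, adjusted p = 1.8e-05). In all 3 genes the highest dCBP-30 library was below the lowest DMSO library for both kinds of read.

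KLF6 had 11.6, 10.4 and 10.3 RPM in reads without a conversion against 58.3, 49.3 and 46.8 RPM, a change of -2.25 (SE 0.18, adjusted p = 4.4e-09), and the interaction test did not call a difference to its T>C reads, at -0.30 (adjusted p = 0.589). ID2 had 5.0, 7.13 and 5.95 against 26.6, 34.6 and 30.5 RPM, a change of -2.34 (SE 0.21, adjusted p = 7.0e-08) and a difference of -0.17 (adjusted p = 0.859). PIM1 had 8.02, 9.04 and 9.33 against 35.5, 46.5 and 50.8 RPM, with 19.9% left and a change of -2.33 (SE 0.18, adjusted p = 4.4e-09). T>C reads were 71.7% of the DMSO reads of KLF6, 51.7% of those of ID2 and 64.6% of those of PIM1. BTG2 (-2.39, adjusted p = 3.0e-08), ZNF217, a transcriptional repressor (-2.35, adjusted p = 8.6e-07), IRF1 (-2.15, adjusted p = 3.0e-09), BHLHE41, a clock repressor (-2.22, adjusted p = 7.0e-08), DUSP5 (-2.48, adjusted p = 1.6e-05), DUSP4 (-2.23, adjusted p = 1.6e-06) and CXCR4 (-2.27, adjusted p = 1.1e-04) completed, with MYC, TRIB1, KLF6, ID2 and PIM1, the 12 largest decreases among genes with a mean of at least 100 such reads under DMSO.

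The transcription factors of the plasma cell lay between. PRDM1 kept 28.9% of its reads without a conversion (-1.79, adjusted p = 3.4e-07) and IRF4 34.4% (-1.54, adjusted p = 4.4e-09). MAF had 253, 298 and 216 RPM in reads without a conversion against 407, 405 and 435 RPM, 61.4% of the level, and although the groups did not overlap, its change of -0.70 (SE 0.21, adjusted p = 0.108) was not called. XBP1 kept 61.6% (-0.70, adjusted p = 6.5e-04) and PIM2 65.1% (-0.62, adjusted p = 0.0496). The order of PRDM1, IRF4, MAF, XBP1 and PIM2 in what was left was the inverse of their T>C shares under DMSO, 70.7%, 42.7%, 24.7%, 14.7% and 18%, except that PIM2 kept more than XBP1 and had the higher share.

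At the slow end the older RNA hardly moved. SDC1 had 1206, 1319.8 and 1142 RPM in reads without a conversion under dCBP-30 and 1200.3, 1346 and 1466 RPM under DMSO, and the groups overlapped, with a change of -0.13 (SE 0.12, adjusted p = 0.694). CCND2 had 1510.4, 1478 and 1638 against 1489, 1916 and 1779 RPM, with 89.2% left and a change of -0.16 (SE 0.11, adjusted p = 0.547). POU2AF1 had 215, 255 and 213 against 203, 220.2 and 266 RPM and a change of -0.01 (SE 0.16, adjusted p = 0.986), whose sign depended on the setting. SELPLG (-0.11, adjusted p = 0.731), LAMP5 (-0.13, adjusted p = 0.633), PKP2, a desmosome protein gene (-0.14, adjusted p = 0.746), ADA, adenosine deaminase (-0.18, adjusted p = 0.555), and PPP1R16B (-0.19, adjusted p = 0.590) were not called either, while their T>C reads fell by more than 3 on the log2 scale. In the interaction test the change of the T>C reads minus that of the others was -2.92 (adjusted p = 2.8e-09) on the log2 scale for SDC1, -2.95 (adjusted p = 9.6e-10) for CCND2, -3.84 (adjusted p = 3.0e-09) for MAF and -2.67 (adjusted p = 8.1e-10) for PIM2. The 8 genes from SDC1 to PPP1R16B were named by a rule that takes a large fall of T>C reads with little change of the others. Their uncalled reads without a conversion, and the differences of SDC1 and CCND2, follow from that choice and are no further result.

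**Figure D5:**
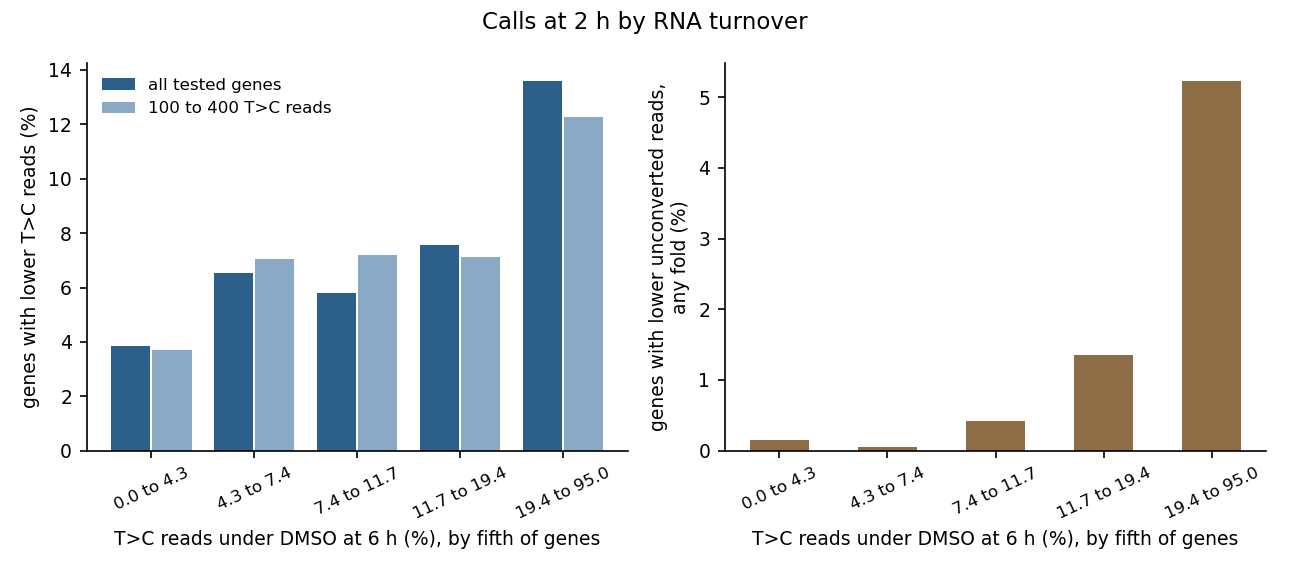
The share of genes called lower at 2 h, in percent, in 5 bins by the share of T>C reads in the DMSO libraries at 6 h, for T>C reads (left, for tested genes with at least 100 reads in those libraries and for those with 100 to 400 T>C reads) and for reads without a conversion (right). T>C reads were lower in 3.86% of the genes of the slowest bin and 13.6% of the fastest, and reads without a conversion in 0.157% and 5.22%.

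Genes of fast turnover were also more often called lower in T>C reads. Tested genes with at least 100 reads in the DMSO libraries at 6 h were divided by their T>C share there into 5 bins of 1915 or 1916 genes. From the slowest bin to the fastest, 3.86%, 6.53%, 5.80%, 7.57% and 13.6% of the genes were lower in T>C reads, and 1.51%, 2.14%, 1.36%, 1.41% and 1.67% higher. Within the genes with 100 to 400 T>C reads in the DMSO libraries at 6 h, which left 647 to 864 genes in a bin, the shares lower were 3.71%, 7.05%, 7.21%, 7.11% and 12.3%. The reads without a conversion were lower in 0.157%, 0.0522%, 0.418%, 1.36% and 5.22%, and within the genes with 100 to 400 T>C reads in 0.155%, 0%, 0.367%, 0.350% and 2.43%. The fastest bin held 260 of the 720 genes that lost T>C reads. No background was subtracted in these bins. The median gene had a T>C share of 0.524% and 0.579% in the libraries without 4sU, against a median of 2.85% in the slowest bin. Background thus makes up more of the T>C reads in the slow bins, and its part in the difference between bins was not tested.

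AU-rich elements, which mark mRNAs for rapid decay, were searched in the last 500 bases of the 3′ UTRs, on the strand of the gene. TATTTAT was in 27.6% of the 127 UTR ends of genes whose reads without a conversion fell, in 15.3% of the 9857 other UTR ends tested and in 15.8% of all 14811. In the 519 genes whose T>C reads fell without a call in the older reads, it was in 17.2%. The nonamer TTATTTATT, which overlaps it, was in 7.09%, 2.85% and 3.07% of the same 3 sets. The Pumilio element TGTANATA was in 24.4%, 13.6% and 13.3%, and the poly(A) signal AATAAA in 79.5%, 74.8% and 74.1%.

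The sites of 6 of the genes with the largest loss of older RNA are shown with that of CCND2, the 1 gene with stable older RNA among the 8 named for it whose whole 3′ UTR held TATTTAT, since they place the element beside both outcomes. The capitals mark the heptamer, and each stretch of 29 bases is given on GRCh38 and the strand of the gene, for PIM1 at chr6:37174993-37175021, plus strand, BTG2 at chr1:203307528-203307556, plus strand, KLF6 at chr10:3778341-3778369, minus strand, ID2 at chr2:8684114-8684142, plus strand, IRF1 at chr5:132483264-132483292, minus strand, CXCR4 at chr2:136114697-136114725, minus strand and CCND2 at chr12:4304492-4304520, plus strand.
PIM1: atttatttattTATTTATttggttccctt
BTG2: aaatgaagagcTATTTATatatattattt
KLF6: tatgtttctctTATTTATgccttgaggac
ID2: tgctgtgtataTATTTATatataaatata
IRF1: gcctttgcattTATTTATacagtgccttg
CXCR4: tttaattgactTATTTATataaatttttt
CCND2: attcaagaggaTATTTATtacttcctcat
Of the 12 genes with the largest loss of older RNA, 10 held the heptamer somewhere in their whole 3′ UTR, and PIM1 held 4 copies. The shares of the sets above count only the ends of the UTRs, and no share over whole 3′ UTRs is given for all genes. The count of 10 can therefore not be set against those shares. DUSP5 and TRIB1, with changes of -2.48 and -3.45 on the log2 scale, held none.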

How the data were processed

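The analysis used SLAM-seq data of the MM1.S line, with 3 libraries treated with dCBP-30 and 3 with DMSO for 2 h, in one fit with the 18 labelled libraries of the series. The authors prepared QuantSeq 3′ libraries from alkylated RNA, trimmed the reads with Trim Galore, ran Slamdunk with the 3′ UTRs of the hg38 build as its regions, and deposited raw counts per transcript of reads and T>C reads, with no pooling of replicates. The Drosophila RNA that the authors added as a spike-in was not used here, so a change shared by all RNA is not measured. Counting on 3′ UTRs, with no correction for the number of T in a read, makes T>C shares depend on base composition.

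Of 97466 transcript rows, 89088 (91.4%) matched GENCODE release 44, and 0.171% to 0.185% of the reads at 2 h fell on unmatched rows. Each gene was represented by its transcript with the most reads. Reads without a conversion are reads minus T>C reads. edgeR's quasi-likelihood test (edgeR 4.0.16, R 4.3.3) used library totals with TMM factors of the total reads, filterByExpr and Benjamini-Hochberg adjustment over all genes tested, and log2 fold changes have standard errors from the fit. Alternatives included DESeq2 1.42.0 and limma 3.58.1. The scripts were tested on simulated data. Replicates were not copies of each other, with a chi-square per degree of freedom between 10.5 and 50.1. Python 3.11.15 drew the figures. Sequences came from RefSeq promoters (GRCh38.p14) and hg38.

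The genes, gene lists and tests were chosen with earlier results of these data known, so no test was made over a list. Genes were named as up to 3 decreases and 2 increases of a list, the largest among called members with at least 20 T>C reads and no overlap between groups, the 12 lower genes with the highest T>C level under DMSO, the 8 largest increases with a mean of 20 or more T>C reads under dCBP-30 and 10 or more in total under DMSO, the 12 largest decreases of reads without a conversion with a mean of at least 100 such reads, the 8 genes with T>C reads lower by more than 3 on the log2 scale whose older RNA changed least downwards among those with means of at least 50 T>C reads and 200 reads without a conversion under DMSO, and the genes the study names. All others named here were chosen after their values were seen. A gene list and a gene of another list are not reported here.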

Additional observations from a re-analysis of the deposited data

Results flagged for a closer look

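The change of T>C reads differed between 6 h and 2 h in edgeR's interaction contrast. It was lower at 6 h in 741 of the 10083 genes tested and higher in 69 at an adjusted p under 0.05 and any fold. The median difference over all genes was -0.32 on the log2 scale. Without TMM factors the first count was 461 and the median -0.10. With T>C totals as the library sizes they were 292 and 0.12, so the sign of the median depended on the scaling.

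Of the 61 MYC targets, the change was lower at 6 h than at 2 h in 54, and in 29 to 54 over 17 alternatives, beside 741 of all 10083 genes. NCL, a nucleolar protein gene, changed by -0.27 on the log2 scale at 2 h and -2.07 at 6 h, a difference of -1.80 (adjusted p = 6.3e-06). ODC1, of polyamine synthesis, changed by -0.18 and -2.42, a difference of -2.24 (adjusted p = 6.2e-07).

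Of the 79 cytosolic ribosomal protein genes, the change was lower at 6 h in 47, and in 23 to 51 over the same alternatives, beside the same 741 of all genes. RPL3 changed by 0.39 at 2 h and -1.69 at 6 h, a difference of -2.08 (adjusted p = 3.8e-08). MYC itself changed by -6.29 and -6.54, a difference of -0.26 (adjusted p = 0.902). These genes were chosen after their values were seen. The time points have their own DMSO libraries.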

How the results depend on the processing

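The counts of lower genes kept within 1.5 times of their main value in T>C reads (632 to 683 without 1 library, 555 to 797 otherwise), in total reads (126 to 151, 127 to 168) and against unconverted reads (369 to 400, 308 to 528), and so did the 75 genes over 2-fold lower in reads without a conversion (59 to 75, 61 to 87). The counts of increases moved more. Without TMM factors, 91 genes rose in total reads, and 52 over 2-fold and 184 at any fold in reads without a conversion. DESeq2 gave 87, 52 and 165, and 212 lower at any fold. The 6 libraries fitted alone gave 36, 17 and 38. An adjusted p under 0.1 gave 265 in T>C reads, 149 at any fold and 122 against unconverted reads. Reads summed over transcripts gave 18, 48 and 32 in reads without a conversion over 2-fold, at any fold and against unconverted reads, and no filter gave 137 in the last. Scaled by its own T>C reads, 431 genes rose. Without 1 library the increases numbered 112 to 201 in T>C reads, 39 to 88 in total reads, 15 to 31 and 29 to 104 in reads without a conversion, and 28 to 61 against unconverted reads, and the decreases at any fold 83 to 135. The difference between 6 h and 2 h, lower in 741 genes and higher in 69, ranged over 590 to 738 and 49 to 63 without 1 library. It was lower in 461 without TMM factors, in 292 with own T>C scaling (163 higher) and in 402 with summed reads (37 higher). The ratio of T>C shares, 0.910 over all reads, was 1.003 as a median over genes.

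Replicate numbers did not pair the samples (correlations of deviations 0.018, 0.056 and -0.11). With the replicate block, 648 genes were lower and 154 higher in T>C reads, 146 and 33 in total reads, 67 and 13 over 2-fold and 90 and 23 at any fold in reads without a conversion, and 469 and 72 in the T>C share by limma (435 and 47 with no block).

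Of 113 named genes called in T>C reads, 26 lost the call under at least 1 of 16 alternatives, 15 of them lower genes. Signs turned in genes that were not called: EP300 in T>C reads (-0.083 without DMSO replicate 1, -0.083 to 0.51 without 1 library), and POU2AF1 and CREBBP in reads without a conversion (POU2AF1 0.092 without TMM factors and -0.10 to 0.11 without 1 library, CREBBP -0.17 without dCBP-30 replicate 2 and -0.17 to 0.58 without 1 library). The cause was not tested. Depth limits genes with few T>C reads.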

Other observations

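Genes that act in mRNA decay were themselves among the genes with lower new RNA. Of 46 tested genes of decay and deadenylation, 9 were lower in T>C reads at 2 h, and 7 to 10 over 16 alternatives, beside 7.14% of all genes. They included BTG1 and BTG2, which recruit the deadenylase, with log2 fold changes of -1.78 and -3.70, ZFP36, ZFP36L1 and ZFP36L2, which bind AU-rich elements, with -2.37, -2.84 and -1.24, CNOT6L, a deadenylase subunit, with -1.72, DDX6, a helicase of P bodies, with -1.24, and the RNase gene ZC3H12A with -1.18. For BTG2 the reads without a conversion fell by 2.39 on the log2 scale, for ZFP36 by 1.55 and for ZFP36L1 by 1.23.

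Of 23 tested genes of TGF-beta and BMP signalling, 5 were lower in T>C reads, and 5 or 6 over the alternatives. SMAD7, which inhibits the pathway, changed by -3.21, SMAD1 by -2.59, SKIL by -1.91, ID2 by -2.54 and ID3 by -1.77. Of 23 tested ATF4 targets, 4 were lower, namely DDIT4, PPP1R15A, SLC38A2 and VEGFA, and SESN2 was higher. DDIT4, an inhibitor of mTORC1, changed by -2.87 in T>C reads and by -2.64 in reads without a conversion (adjusted p = 0.047), but 35.2% of its reads were T>C reads in the libraries without 4sU, against 83.5% under DMSO and 80.8% under dCBP-30, so part of its T>C reads does not stand for new RNA. All genes of both paragraphs were chosen after their values were seen, and the lists share members with those above.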
